A study of Mus musculus with 6 samples.

Results

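Large unmethylated runs of CpG cytosines were described in E14 mouse embryonic stem cells by reduced representation bisulfite sequencing (RRBS). A run joined neighbouring autosomal cytosines that had a methylation level in all 6 libraries and lay at most 100 bp apart. A run was taken as large and unmethylated where it held at least 20 cytosines and its mean level was below 2% in every library. This gave 2442 of the 2791 runs of at least 20 cytosines, out of 79308 runs of any size. They held 70712 of the 369208 shared autosomal cytosines, or 19.2%, and spanned 753 kb in all. The runs were chosen by these same levels, so the levels are given as a description, with no test.

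There were 6 libraries, each of E14 cells with 1 short hairpin RNA (shRNA) treatment: Tet1 and Tet2 together, Dnmt1 (Dnmt1a in the library's title), Dnmt3a, Dnmt3b, Dnmt3a and Dnmt3b together, and a control shRNA. With 1 library per group no difference between libraries has a replicate error or a p-value, and the SD given beside a mean is over the 19 autosomes, which describes spread along the genome only. An shRNA lowers a transcript without removing the gene, and the remaining amount of each target was not analysed here. The number of cytosines with an entry was lowest for Dnmt1, at 445016, and highest for Tet1 and Tet2, at 604227. Read depth per cytosine is unknown, so no counting interval can be given. Over the 94 mitochondrial cytosines with a level in every library, which served as background, the mean was between 0% (control) and 0.0660% (Dnmt1). Over all mitochondrial cytosines that a library listed it was between 0.0190% (Dnmt3a) and 0.0732% (Dnmt3b), with 0.0585% in control.

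CpG islands are stretches of DNA where CpG dinucleotides have kept nearly the density that base composition alone would give, while most of the mammalian genome has lost them. Many lie over gene starts and stay free of methylation in nearly every cell type. DNMT3A and DNMT3B place new methyl groups on CpGs, DNMT1 copies them to the daughter strand after replication, and TET1 and TET2 oxidise 5-methylcytosine. TET1 is known to bind CpG islands in embryonic stem cells. RRBS cuts DNA at CCGG with MspI, so it reads such islands densely. Bisulfite sequencing reads 5-methylcytosine and 5-hydroxymethylcytosine alike.

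The deposited levels carry 5 bases of sequence around each cytosine, and these were laid over 31396 RefSeq promoter windows of build GRCm38.p6, each reaching from 250 bases before to 50 bases after a gene start. A window was accepted where at least 10 of the cytosines read at a run fell inside it and every one of them had its 5 bases and its spacing there. These were not only the cytosines counted in the run: at Larp1 39 were matched, while its run held 28. Windows of 842 genes were found in 747 runs, or 30.6% of them. When chromosomes were interchanged, 0 windows were found. In 615 runs the gene start itself lay inside the run, and 98 runs held windows of genes on both strands, as at divergent gene pairs. The matched windows were rich in CpGs. The choice of runs with many cytosines, the match over at least 10 of them and the reading at CCGG largely fix this, so it is given as a description, and runs without a match could not be described in this way. The 902 matched windows had a median of 35 CpGs, a GC content of 71.3% and 0.950 times the CpGs that their base composition would give. All windows together had medians of 7 CpGs, 53% and 0.389. Each matched window held CCGG, on which the assay depends, against 53.5% of all windows. GGGCGG, the core letters of the GC box that SP1 family factors bind, was found on either strand in 84.9% of matched windows against 36.0% of all windows. TATAAA was found in 3.33% against 13.6%, CCAAT in 31.5% against 37.3% and CCGGAA in 26.2% against 15.1%. Every motif was searched on both strands. CCGGAA contains CCGG, and it and GGGCGG hold a CpG.

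The windows of 3 named runs are shown because they mark the range described below: Cdc73, one of the runs with the most cytosines and nearly free of signal; Stat5b, where the ends carried more methylation than the centre; and Adamts20, which had the highest mean of all runs in the Dnmt3b library. Each is RefSeq sequence of build GRCm38.p6 in the direction of the gene, with the bases whose levels were listed in at least 1 library in capitals. A capital C was read on the strand shown and a capital G on the opposite strand.
Cdc73 (chr1:143702844-143703143, minus strand): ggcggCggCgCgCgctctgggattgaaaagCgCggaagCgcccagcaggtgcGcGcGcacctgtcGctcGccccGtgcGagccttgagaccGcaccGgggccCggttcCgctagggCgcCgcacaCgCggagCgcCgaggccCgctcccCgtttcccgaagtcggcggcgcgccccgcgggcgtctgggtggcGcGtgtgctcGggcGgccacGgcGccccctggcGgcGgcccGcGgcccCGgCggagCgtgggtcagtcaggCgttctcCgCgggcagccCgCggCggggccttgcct
Stat5b (chr11:100850532-100850831, minus strand): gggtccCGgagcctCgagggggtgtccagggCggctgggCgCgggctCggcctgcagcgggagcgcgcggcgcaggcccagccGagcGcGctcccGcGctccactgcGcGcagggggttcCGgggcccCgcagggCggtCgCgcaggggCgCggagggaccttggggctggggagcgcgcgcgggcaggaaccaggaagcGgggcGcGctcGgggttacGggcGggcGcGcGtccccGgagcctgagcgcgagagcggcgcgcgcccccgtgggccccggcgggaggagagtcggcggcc
Adamts20 (chr15:94404301-94404600, minus strand): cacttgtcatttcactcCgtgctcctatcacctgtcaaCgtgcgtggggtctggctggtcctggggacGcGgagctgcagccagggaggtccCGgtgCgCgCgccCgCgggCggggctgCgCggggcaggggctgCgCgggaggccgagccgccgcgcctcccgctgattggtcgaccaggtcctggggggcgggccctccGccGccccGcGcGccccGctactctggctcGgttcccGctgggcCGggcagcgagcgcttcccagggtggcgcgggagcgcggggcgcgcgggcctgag
The Cdc73 window had 54 CpGs, and 46 of its cytosines were read. The Stat5b window had 50 CpGs with 32 cytosines read, and the Adamts20 window 41 CpGs with 26 cytosines read. Cdc73 encodes a subunit of the PAF1 complex of transcribing RNA polymerase II, Stat5b a transcription factor of cytokine and growth hormone signalling, and Adamts20 a secreted metalloprotease.

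The runs were short. They held a median of 26 cytosines (interquartile range 22 to 33, highest 98) over a median span of 287 bp (interquartile range 230 to 370 bp, from 91 to 1073 bp). Only 176 runs (7.21%) spanned more than 500 bp and 98 (4.01%) held at least 50 cytosines. Both strands were read in 2441 of the 2442 runs, and 50.2% of the cytosines lay on the plus strand. The share of runs of at least 20 cytosines that passed the limit was between 80.5% (chromosome 17) and 95.5% (chromosome 10).

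Traces of methylation were found in every library. The mean level was 0.238% ± 0.048 after Tet1 and Tet2 knockdown, 0.0579% ± 0.0109 after Dnmt1 knockdown, 0.0801% ± 0.0194 after Dnmt3a knockdown, 0.178% ± 0.035 after Dnmt3b knockdown and 0.0803% ± 0.0156 after knockdown of Dnmt3a and Dnmt3b together, against 0.166% ± 0.038 in control (SD over 19 autosomes). The Tet1 and Tet2 library was the highest and the Dnmt1 library the lowest. The Dnmt1 mean in the runs lay between that library's mitochondrial means of 0.0660% over the shared cytosines and 0.0539% over all 115 that it listed, while in control the runs stood at 0.166% and the mitochondrial cytosines at 0% over the shared ones and 0.0585% over all that were listed.

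**Figure D1:**
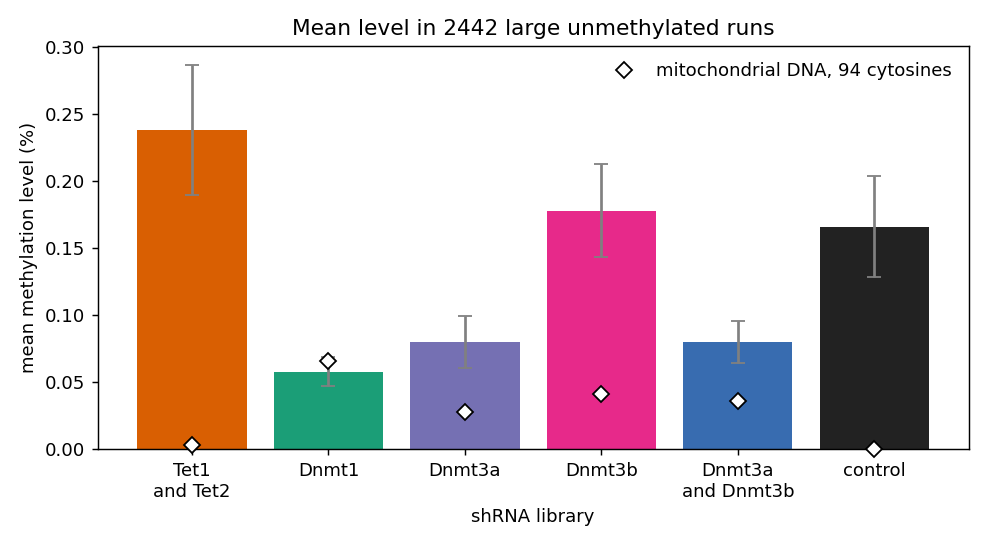
Mean methylation level in percent over the 70712 cytosines of the large unmethylated runs (bars, with the SD over 19 autosomes), for each of 6 shRNA libraries, and over 94 mitochondrial cytosines (diamonds). Tet1 and Tet2 knockdown was highest at 0.238%, and Dnmt1 knockdown, at 0.0579%, lay near its mitochondrial value of 0.0660%.

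Relative to control, the mean level was 1.43 times as high after Tet1 and Tet2 knockdown, a difference of 0.0721 ± 0.0204 percentage points, and was higher on 19 of 19 autosomes. After Dnmt1 knockdown it was 0.349 times control (-0.108 ± 0.033 points), after Dnmt3a knockdown 0.482 times (-0.0861 ± 0.0239 points) and in the double knockdown 0.483 times (-0.0859 ± 0.0268 points), each lower on 19 of 19 autosomes. The Dnmt3b library was 1.07 times control, and its difference of 0.0119 ± 0.0164 points was smaller than its own spread over the autosomes, with 15 autosomes higher and 4 lower. The double knockdown differed from Dnmt3a alone by less than the spread over autosomes (0.000177 ± 0.0111 points), the double being higher on 11 autosomes and lower on 8. The 10621 shorter runs of 5 to 19 cytosines below the same limit had nearly the same ratios to control: 1.40 for Tet1 and Tet2, 0.332 for Dnmt1, 0.435 for Dnmt3a, 1.06 for Dnmt3b and 0.443 for the double knockdown.

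Cytosines that the rule did not use were also lower after Dnmt1, Dnmt3a and double knockdown than in control, but with a wide spread. Inside the spans of the runs, 4262 of 74974 cytosines lacked a level in at least 1 library and so took no part in the choice. Over those listed in both libraries of a pair, the Dnmt1 library read 0.0807% against 0.285% in control (1200 cytosines, ratio 0.283). The double knockdown read 0.154% against 0.333% (1179 cytosines, ratio 0.464) and Dnmt3a 0.166% against 0.297% (1137 cytosines, ratio 0.558). These 3 were again below control, on 11, 13 and 14 autosomes, and above it on 3 each. Dnmt3b read 0.190% against 0.160% (ratio 1.19), and Tet1 and Tet2 0.366% against 0.338%. The Tet1 and Tet2 ratio was only 1.08 in this set, with 11 autosomes higher and 7 lower. This was a smaller ratio than the 1.43 found over the cytosines that the rule used. Each of the 5 differences was smaller than its SD over the autosomes, which was 0.399 points for Tet1 and Tet2, 0.441 for Dnmt1, 0.220 for Dnmt3a, 0.380 for Dnmt3b and 0.304 for the double knockdown. Over all such cytosines that each library listed, which are not the same ones, Tet1 and Tet2 (0.219%) and Dnmt3b (0.195%) lay below control (0.230%), the opposite of their direction over the cytosines that the rule used. Few of these cytosines reached 20%: between 0 (Dnmt1) and 4 (control) per library.

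Most cytosines read exactly 0. A level above 0 was found at 15.3% of the cytosines after Tet1 and Tet2 knockdown, 7.05% after Dnmt1, 8.28% after Dnmt3a, 13.3% after Dnmt3b and 9.42% after the double knockdown, against 13.3% in control. This share also depends on read depth, which is unknown. Levels of at least 5% were rare, at 573 cytosines for Tet1 and Tet2, 85 for Dnmt1, 104 for Dnmt3a, 319 for Dnmt3b, 95 for the double knockdown and 256 in control. No more than 3 cytosines in any library reached 20%, and the highest level was 22.2%, in control.

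Traces recurred at some of the same cytosines. Of the 70712 cytosines, 44700 (63.2%) read 0 in every library, 14847 (21.0%) were above 0 in 1 library only, and 419 (0.593%) were above 0 in all 6. These 419 lay in 173 runs, with up to 41 in a single run and only 1 in each of 94 runs. Their mean level was 2.67% after Tet1 and Tet2 knockdown, 0.802% after Dnmt1, 1.19% after Dnmt3a, 2.22% after Dnmt3b and 1.09% after the double knockdown, against 2.12% in control. The highest single cytosine by its mean over the libraries lay on chromosome 5 (position 113650204, mm9, minus strand) in a run matched to 2900026A02Rik. It read 18.7% after Tet1 and Tet2 knockdown, 18.1% after Dnmt1, 14.5% after Dnmt3a, 18.4% after Dnmt3b, 15.9% after the double knockdown and 15.7% in control, so that the Dnmt1 library was not low there. The next lay on chromosome 9 (position 97011312, minus strand), with 9.8%, 12.7%, 21.1%, 11.6%, 12.3% and 14.7% in that order of libraries. The following one, on chromosome 4 (position 41678072, minus strand) in the run matched to Arid3c, read 10% after Tet1 and Tet2 knockdown, 14.3% after Dnmt1 and 5.3% after Dnmt3a, and 5.3% after Dnmt3b, 4.3% after the double knockdown and 18.5% in control. These single cytosines did not follow the order of the libraries seen in the means.

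Both strands of the same CpG were read at 1484 CpGs of the runs. Both strands were above 0 at 109 of them after Tet1 and Tet2 knockdown, 25 after Dnmt1, 33 after Dnmt3a, 65 after Dnmt3b and 45 after the double knockdown, against 76 in control. A single strand was above 0 at 336, 225, 259, 297, 257 and 319 CpGs in that order. A trace was thus read on 1 strand alone at more CpGs than on both strands in every library. These counts also depend on read depth, which is unknown, so a 0 need not mean that a strand carried no methylation. Over all cytosines the strands differed little, with 0.241% on the plus and 0.236% on the minus strand for Tet1 and Tet2, and 0.164% and 0.169% in control.

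The traces were spread unevenly over the runs. In each library the 244 runs with the largest summed level, 10% of all, held between 46.9% (double knockdown) and 54.3% (Dnmt3b) of the summed level. A run mean of exactly 0 was found in 416 runs after Tet1 and Tet2 knockdown, 711 after Dnmt1, 636 after Dnmt3a, 486 after Dnmt3b and 489 after the double knockdown, against 431 in control, and 33 runs read 0 in all 6 libraries. The median run stood at 0.0849% for Tet1 and Tet2, 0.0257% for Dnmt1, 0.0360% for Dnmt3a, 0.0543% for Dnmt3b, 0.0409% for the double knockdown and 0.0667% for control. Thus the Dnmt3b median lay below that of control although its mean lay above. Runs of at least 1% numbered 135 for Tet1 and Tet2, 3 for Dnmt1, 3 for Dnmt3a, 81 for Dnmt3b, 2 for the double knockdown and 59 for control. In all, 1989 runs (81.4%) stayed below 0.5% in every library and 166 (6.80%) reached 1% in at least 1. Across the 2442 runs the means correlated between libraries, with Pearson's r of 0.82 between Tet1 and Tet2 and Dnmt3b, 0.81 between Tet1 and Tet2 and control, 0.78 between Dnmt3b and control, and 0.36 between Dnmt1 and Dnmt3a. By rank the correlations were lower, with Spearman's rho of 0.66, 0.64, 0.61 and 0.28 for these pairs in that order. These are correlations across runs, which share their sequence and mapping and are not replicates.

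**Figure D2:**
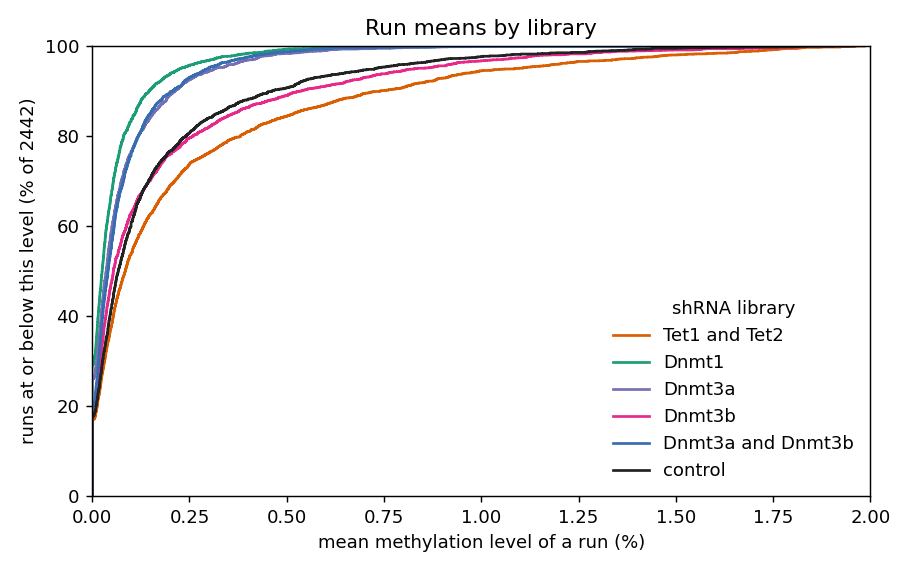
Share of the 2442 runs, in percent, whose mean methylation level lies at or below the value on the horizontal axis (percent), 1 line per shRNA library. The lines of Dnmt1, Dnmt3a and the double knockdown climb first, with medians of 0.0257%, 0.0360% and 0.0409%, and that of Tet1 and Tet2 climbs last, with a median of 0.0849%.

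Counted run by run, 2011 runs had a control mean above 0 and allowed a ratio. The mean was at most 0.5 times control in 1323 of these runs (65.8%) after Dnmt1 knockdown, where 84.6% of the 17265 runs of at least 5 cytosines with a control mean above 0 passed that ratio. The count was 1192 (59.3%) after Dnmt3a knockdown, where the background was 49.5%, and 1129 (56.1%) in the double knockdown, where it was 46.5%. At least 2 times control were 193 runs (9.60%) after Dnmt1 knockdown, with a background of 3.28%, 185 (9.20%) after Dnmt3a knockdown, with 3.27%, and 235 (11.7%) in the double knockdown, with 4.01%. A mean of at least 2 times control was found in 590 runs (29.3%) after Tet1 and Tet2 knockdown, against 16.8% of all runs of at least 5 cytosines, while 507 runs (25.2%) were at most 0.5 times control, against 14.6%. For Dnmt3b, 361 runs (18.0%) were at least 2 times control, against 10.8%, and 700 (34.8%) at most 0.5 times, against 19.7%. Among all runs of at least 20 cytosines the shares at most 0.5 times control were 69.9% for Dnmt1, 60.4% for Dnmt3a and 56.6% for the double knockdown, near those of the unmethylated runs, which make up most of them. The limit of 2% in every library took part in fixing these ratios, and at levels this low 1 cytosine can move a run past them.

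Averaged over cytosines, the ends of the runs carried more methylation than the centre. The 5 outermost cytosines at each end averaged 0.317% after Tet1 and Tet2 knockdown, where the cytosines between them averaged 0.197%, a difference of 0.120 ± 0.048 points with the edge higher on 19 of 19 autosomes. For Dnmt3b the edge and centre stood at 0.228% and 0.152% (0.0766 ± 0.0338 points, 19 autosomes), and for Dnmt3a at 0.102% and 0.0684% (0.0338 ± 0.0233 points, 18 autosomes). The double knockdown had 0.0935% and 0.0733% (0.0203 ± 0.0155 points, 18 autosomes). In control the values were 0.207% and 0.145% (0.0621 ± 0.0361 points, 17 autosomes). The smallest difference was in the Dnmt1 library, with 0.0687% and 0.0523% (0.0165 ± 0.0188 points, 16 autosomes), which is less than its spread over the autosomes. Counted run by run, the edge was higher in 1156 runs and lower in 864 for Tet1 and Tet2, in 788 and 930 for Dnmt1, in 912 and 881 for Dnmt3a, in 1049 and 895 for Dnmt3b, in 960 and 979 for the double knockdown, and in 1069 and 928 for control. In the Dnmt1 and double knockdown libraries more runs thus had the lower level at the edge. The place of a cytosine in its run was not used to choose the runs. The excess depended on the gap that ends a run: with gaps of at most 50 bp it was 0.0378 ± 0.0620 points for Tet1 and Tet2, 0.00482 ± 0.0214 for Dnmt1, 0.0129 ± 0.0375 for Dnmt3a, 0.0335 ± 0.0504 for Dnmt3b, 0.00546 ± 0.0303 for the double knockdown and 0.0169 ± 0.0397 for control, each smaller than its spread over the autosomes.

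The level went down from the end inwards over the first few cytosines. The outermost cytosine averaged 0.393% for Tet1 and Tet2, 0.0978% for Dnmt1, 0.147% for Dnmt3a, 0.270% for Dnmt3b, 0.127% for the double knockdown and 0.266% for control. From the eleventh cytosine inwards the values were 0.176%, 0.0533%, 0.0706%, 0.134%, 0.0730% and 0.136% in that order. CCGG sites made up 76.5% of the outermost cytosines and 12.7% of the centre, since runs begin and end at cut fragments. Pooled over edge and centre, cytosines of CCGG sites had higher levels in all 6 libraries. They read 0.316% against 0.225% at other cytosines for Tet1 and Tet2, 0.0944% against 0.0517% for Dnmt1, and 0.221% against 0.157% in control. In the centre alone this did not hold for Dnmt3b, with 0.149% at CCGG sites against 0.152% at other cytosines. It held there in each other library, with 0.180% against 0.140% in control. When CCGG cytosines were left out before the ends were set, the edge stayed above the centre in each library, by 0.104 ± 0.041 points for Tet1 and Tet2, 0.0112 ± 0.0145 for Dnmt1, 0.0201 ± 0.0219 for Dnmt3a, 0.0643 ± 0.0323 for Dnmt3b, 0.00970 ± 0.0165 for the double knockdown and 0.0506 ± 0.0347 for control. For Dnmt1, Dnmt3a and the double knockdown this is smaller than the spread over the autosomes.

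**Figure D3:**
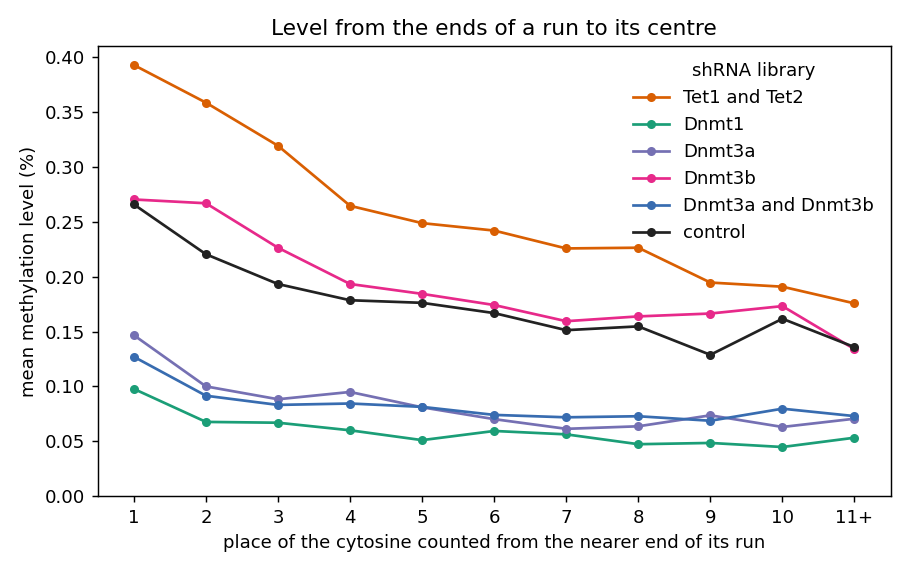
Mean methylation level in percent by the place of a cytosine, counted from the nearer end of its run (1 is the outermost cytosine, 11+ all cytosines further in), 1 line per shRNA library. The line of Tet1 and Tet2 goes from 0.393% at the end to 0.176% in the interior, and that of Dnmt1 from 0.0978% to 0.0533%.

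A run's edge is the edge of what RRBS read in all libraries, and need not be the edge of the unmethylated island. Only 105 of the 2442 runs had a cytosine of at least 20% (median over the libraries) within 1000 bp beyond an end among the shared cytosines, and 5 of these had one beyond both ends. In those 105 runs the edge and centre stood at 0.841% and 0.461% for Tet1 and Tet2, 0.168% and 0.0782% for Dnmt1, 0.276% and 0.150% for Dnmt3a, 0.686% and 0.383% for Dnmt3b, 0.202% and 0.123% for the double knockdown, and 0.539% and 0.354% for control. Each of these differences was smaller than its SD over the autosomes. It was 0.380 ± 0.606 points for Tet1 and Tet2, 0.0894 ± 0.133 for Dnmt1 and 0.125 ± 0.204 for Dnmt3a. For Dnmt3b it was 0.303 ± 0.356, for the double knockdown 0.0790 ± 0.0805 and for control 0.184 ± 0.226. The edge was the higher one on 18, 12, 17, 16, 17 and 16 autosomes in that order of libraries. In the 2337 runs with none, the edge was still above the centre, by 0.108 ± 0.043 points for Tet1 and Tet2 and 0.0569 ± 0.0343 points in control. There the excess was 0.0667 ± 0.0304 for Dnmt3b, 0.0298 ± 0.0252 for Dnmt3a and 0.0177 ± 0.0161 for the double knockdown. For Dnmt1, at 0.0132 ± 0.0157, it was within its spread.

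Beyond the ends, the level was higher the farther out a cytosine lay. The limit of 2% held only inside the runs, and cytosines of other such runs were left out beyond the ends. The rise from the runs outwards is thus in part fixed by these choices and is given as a description. Shared cytosines from 101 to 200 bp outside a run averaged 0.576% for Tet1 and Tet2, 0.0861% for Dnmt1, 0.195% for Dnmt3a, 0.449% for Dnmt3b, 0.162% for the double knockdown and 0.405% for control. From 701 to 1000 bp outside, the averages were 5.37%, 0.713%, 2.59%, 4.41%, 2.49% and 4.45% in that order. The ratio of Dnmt1 to control was 0.361 in the centre, 0.332 at the edge, 0.212 at 101 to 200 bp and 0.160 at 701 to 1000 bp. The Dnmt1 levels in the centre (0.0523%) and at the edge (0.0687%) lay near that library's mitochondrial means of 0.0539% and 0.0660%. No background was subtracted, and its part in the change of this ratio was not tested. The ratio of Dnmt3a to control stayed between 0.473 (centre) and 0.581 (701 to 1000 bp). For Tet1 and Tet2 it was 1.53 at the edge, 1.36 in the centre and 1.21 at 701 to 1000 bp. Knockdowns of Tet1 and Tet2 were thus above control at every place measured, and those of Dnmt1, Dnmt3a and the double were below it.

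**Figure D4:**
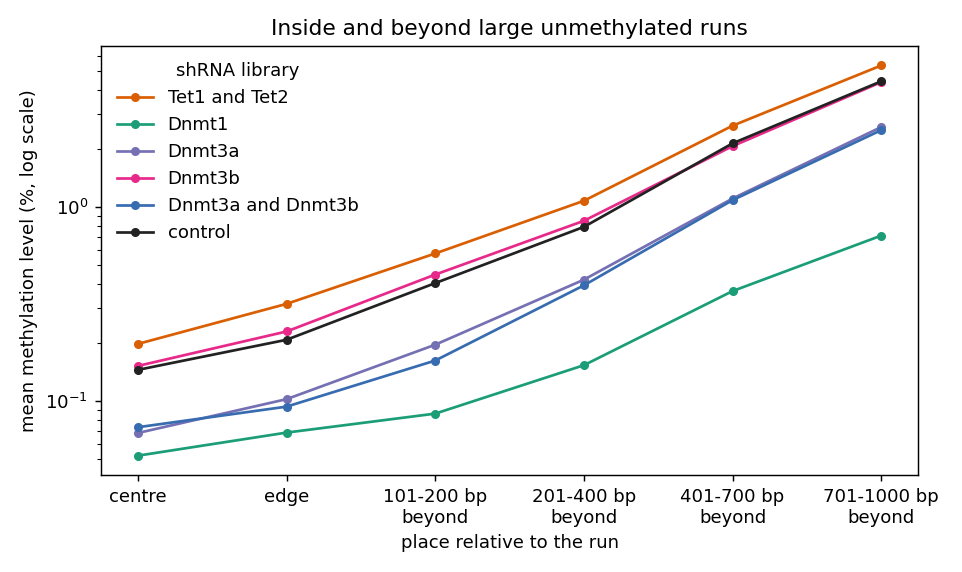
Mean methylation level in percent (log scale) in the centre of the large unmethylated runs, at their edges (5 outermost cytosines at each end) and in 4 distance classes beyond the ends, 1 line per shRNA library. Control goes from 0.145% in the centre to 4.45% at 701 to 1000 bp beyond, and Dnmt1 knockdown from 0.0523% to 0.713%.

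The 3 runs with the largest excess at the edges, averaged over the libraries, lay on chromosome 9 (111213907 to 111214624, mm9), chromosome 11 (100711908 to 100712405, matched to Stat5b) and chromosome 4 (41677965 to 41678432, matched to Arid3c, an ARID domain DNA-binding protein). The Stat5b run, whose window is shown above, had edges of 3.94% and a centre of 0.703% after Tet1 and Tet2 knockdown. Its edges and centre were 0.16% and 0.13% after Dnmt1, 1.51% and 0.0633% after Dnmt3a, 3.42% and 0.567% after Dnmt3b, 1.13% and 0.06% after the double knockdown, and 3.13% and 0.26% in control. The difference was thus above 1 point in every library but Dnmt1. The chromosome 9 run had edges of 3.57%, 0.83%, 4.02%, 4.89%, 1.12% and 3.1% for Tet1 and Tet2, Dnmt1, Dnmt3a, Dnmt3b, the double knockdown and control, with a centre of at most 0.993% (Tet1 and Tet2). The Arid3c run was an exception for Dnmt1, with edges of 2.85% after Dnmt1 knockdown against 2.57% in control. Among the runs whose means were largest, Adamts20 (chromosome 15, 94234785 to 94235039) had 2.85% at its edges and 1.33% in its centre after Dnmt3b knockdown, against 2.21% and 0.481% in control.

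Around gene starts the level was lowest in the 100 bases just upstream of the start in all 6 libraries, but in none of them when the edges of the runs were left out. In 649 runs matched to genes of 1 direction, the cytosines from 1 to 100 bases upstream averaged 0.148% for Tet1 and Tet2, 0.0365% for Dnmt1, 0.0481% for Dnmt3a, 0.107% for Dnmt3b, 0.0470% for the double knockdown and 0.0827% for control (5146 cytosines). From 200 to 299 bases downstream, they averaged 0.303%, 0.0551%, 0.0850%, 0.281%, 0.0827% and 0.237% in that order (1080 cytosines). Downstream of the start as a whole the control mean was 0.156% against 0.112% upstream, and it was higher downstream on 13 of the 18 autosomes with matched runs. With the edges left out these were 0.133% and 0.0774%. Edge cytosines made up 30.4% of the bin just upstream of the start and 53.0% of the bin farthest upstream. Among cytosines of the centre the lowest bin lay at -300 to -201 bases for 5 libraries. It read 0.0909% there against 0.128% just upstream of the start for Tet1 and Tet2, 0.0255% against 0.0465% for Dnmt3a, 0.0694% against 0.0988% for Dnmt3b, 0.0435% against 0.0468% for the double knockdown and 0.0638% against 0.0767% for control. For Dnmt1 it lay at -500 to -401 bases, with 0.0173% against 0.0351%. The Dnmt1 library read 0.0546% downstream and 0.0437% upstream, with 11 of 18 autosomes higher downstream.

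**Figure D5:**
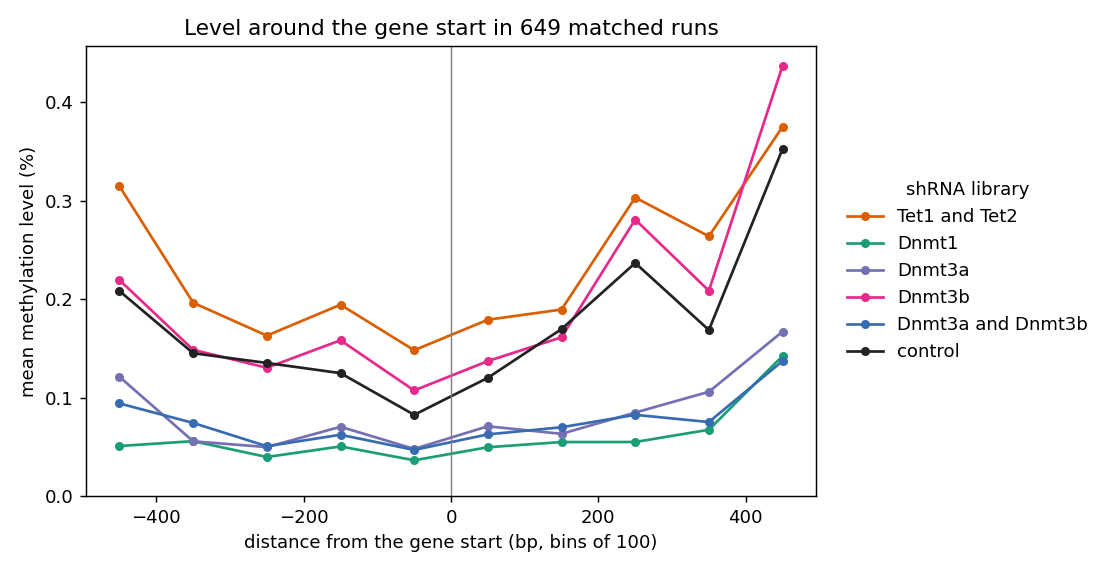
Mean methylation level in percent in bins of 100 bp by distance from the gene start (negative is upstream), over 649 large unmethylated runs matched to genes of 1 direction, 1 line per shRNA library. All lines are lowest in the bin just upstream of the start, where control stands at 0.0827%, and highest at 400 to 499 bp downstream, a bin of 174 cytosines in 32 runs.

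Runs matched to a gene start window had lower traces than the others. The 747 matched runs averaged 0.177% for Tet1 and Tet2, 0.0471% for Dnmt1, 0.0624% for Dnmt3a, 0.138% for Dnmt3b, 0.0593% for the double knockdown and 0.122% for control. The 1695 runs without a match averaged 0.268%, 0.0631%, 0.0885%, 0.197%, 0.0903% and 0.187% in that order. They include all 71 runs of chromosome 18. Matched runs were the lower ones on between 14 (Dnmt3a) and 18 (double knockdown) of 18 autosomes. The 98 runs at divergent genes were lower still, with 0.108% for Tet1 and Tet2 and 0.0647% in control. A run without a match can also lie over a gene start, since windows are short and the table is not complete.

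Among the matches were 35 runs of genes of protein synthesis, chaperones, proteasome and ubiquitin conjugation, RNA polymerase II cofactors and RNA binding, and the respiratory chain. These groups were formed from gene symbols after values had been seen and carry no test. They do not hold every matched gene of these kinds. Among genes left out of them, Bag2 read 1.66% and Celf5 0.714% after Tet1 and Tet2 knockdown, while Eef2 read 0% in every library. Their median run stood at 0.0275% for Tet1 and Tet2, 0.0219% for Dnmt1, 0.0250% for Dnmt3a, 0.0189% for Dnmt3b, 0.0313% for the double knockdown and 0.0355% for control, where all matched runs had medians of 0.0565%, 0.0222%, 0.0276%, 0.0407%, 0.0306% and 0.05%. The median of the 35 was thus the lower one for Tet1 and Tet2, Dnmt3b and control, and close to that of all matches for Dnmt1, Dnmt3a and the double knockdown. Ndufv2, a subunit of respiratory complex I, read 0% after Tet1 and Tet2, Dnmt3a and Dnmt3b knockdown and in control, 0.028% after Dnmt1 and 0.02% after the double knockdown. Psmd13, a proteasome subunit, read 0% in every knockdown and 0.205% in control. Eif4a3, an RNA helicase of the exon junction complex, was placed under protein synthesis by its symbol. It was at most 0.0313% in any library, and Rpl9, a ribosomal protein gene, at most 0.0913%. Rpl22l1 and Mrpl41, also of protein synthesis, reached 0.238% and 0.221% after Tet1 and Tet2 knockdown. Hnrnpa0, an RNA-binding protein, reached 0.288% (Dnmt3b) and Ndufaf3, an assembly factor of complex I, 0.222% (Tet1 and Tet2). Hspd1, which encodes the mitochondrial chaperonin, had 2 runs with highest values of 0.146% (Dnmt1) and 0.135% (Dnmt3a). The highest of the 35 was Ube2q2, a gene of a ubiquitin conjugating enzyme, with 0.725% after Tet1 and Tet2, 0.239% after Dnmt1, 0.0389% after Dnmt3a, 0.833% after Dnmt3b and 0.289% after the double knockdown, against 0.539% in control. Genes of developmental transcription factors were also among the matches, and those named here are not all of them. Dlx2, which acts in forebrain interneurons, read 0.552% after Tet1 and Tet2 knockdown and 0.129% in control. Foxd2 read 0.267% and 0.0567%, Klf15 0.268% and 0.1%, and Glis1 0.232% and 0.0429%. Pou4f1, a factor of sensory neurons, went the other way with 0.0559% and 0.135%, as did Klf9 with 0.0149% and 0.0617% and Ebf3 with 0.015% and 0.105%. Sp9, of the SP family, had the highest control level of these genes, 0.907%, with 0.367% after Tet1 and Tet2 knockdown.

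The matched runs with the highest means over the 6 libraries had tissue-restricted and signalling genes among them. Adra1b, an adrenergic receptor (chromosome 11, 43649683 to 43650147), read 1.71% after Tet1 and Tet2, 0.202% after Dnmt1, 0.310% after Dnmt3a, 1.82% after Dnmt3b and 0.331% after the double knockdown, against 1.5% in control. Ildr2 (chromosome 1, 168184178 to 168184487) read 1.87%, 0.0622%, 0.16%, 1.33%, 0.02% and 1.28% in that order. Dgki, a diacylglycerol kinase, read 1.47%, 0.0682%, 0.341%, 1.83%, 0.0773% and 1.28%. In all 3 runs Dnmt1, Dnmt3a and the double knockdown were the 3 lowest libraries. Septin9, a cytoskeletal GTPase, read 1.73% after Tet1 and Tet2 and 1.56% after Dnmt3b, against 0.685% in control, and 0% after Dnmt1. Zfp37, a zinc finger gene, read 1.53% after Tet1 and Tet2 and 1.57% after Dnmt3b, against 0.590% in control. Arid3c had the highest mean over the libraries, 1.04%, and was not low after Dnmt1 knockdown, with 1.11% against 1.30% in control. The others of the 10 highest were 0610040J01Rik, Adamts20, Fibcd1 and Stat5b, with control levels between 0.978% and 1.38%.

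Of the 5 runs with the most cytosines, 3 had low levels. The Cdc73 run (chromosome 1, 145549750 to 145550274, mm9, 76 cytosines) read 0.0263% after Tet1 and Tet2, 0.00395% after Dnmt1, 0.0145% after Dnmt3a, 0% after Dnmt3b and 0.0434% after the double knockdown, against 0.00921% in control. The run matched to Klhl2, an adaptor of ubiquitin ligases (chromosome 8, 67373278 to 67374013, 83 cytosines), lay between 0.0373% (double knockdown) and 0.0855% (control). A run on chromosome 15 (78744393 to 78745006, 82 cytosines) lay between 0.0268% (Dnmt1) and 0.111% (Dnmt3b and control). A run on chromosome 2 (146910263 to 146911112, 93 cytosines) read 0.595% after Tet1 and Tet2 knockdown and 0.243% in control. The largest of all, on chromosome 17 (39982591 to 39983291, 98 cytosines), was different. It read 1.19% after Tet1 and Tet2, 0.445% after Dnmt1, 1.61% after Dnmt3a, 1.16% after Dnmt3b and 0.971% after the double knockdown, against 1.76% in control, and its edges were below its centre (1.16% and 1.83% in control). From 59 (Dnmt1) to 84 (Tet1 and Tet2) of its 98 cytosines were above 0. It supplied 2.79% of the summed level of all runs in the Dnmt3a library, and without it the Dnmt3a mean was 0.0780%. The widest runs lay on chromosome 14 (55495364 to 55496436, 1073 bp), at 0.0224% (Dnmt3a) to 0.133% (Tet1 and Tet2), and on chromosome 5 (148536696 to 148537720, 1025 bp), which read 0.672% after Tet1 and Tet2, 0.0348% after Dnmt1, 0.0304% after Dnmt3a, 0.233% after Dnmt3b and 0.0239% after the double knockdown, against 0.278% in control.

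Each library had its own highest run. For Dnmt1 this was a run on chromosome 7 (114353786 to 114354037), which read 1.82% after Dnmt1 knockdown against 0.523% in control, with 25 of 26 cytosines above 0 against 11 in control. For the double knockdown it was a run on chromosome 16 (57391705 to 57391799), with 1.81% against 1.27% in control, and for Dnmt3b it was Adamts20, with 1.91% against 1.15%. Just inside the limit lay runs on chromosome 11 (77328680 to 77329354, 1.99% after Tet1 and Tet2 knockdown), chromosome 2 (158493583 to 158493906, 1.96% in control) and chromosome 7 (106530209 to 106530595, 1.95% after Tet1 and Tet2 knockdown). Just outside lay runs on chromosome 17 (39982019 to 39982485, 2.002% in control), beside the largest run, on chromosome 1 (80755212 to 80755360, 2.005% after Dnmt3b knockdown) and on chromosome 3 (54859010 to 54859706, 2.006% after Tet1 and Tet2 knockdown). By size, 243 runs had exactly 20 cytosines, and 314 of 368 runs of 19 cytosines met the limit on level.

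Level differed by size and, over whole runs, by density. Runs of 20 to 24 cytosines averaged 0.175% in control, those of 25 to 34 cytosines 0.158%, those of 35 to 49 cytosines 0.149% and those of at least 50 cytosines 0.225%, the last class holding the chromosome 17 run among its 98. This last class had the highest mean of the 4 in every library, with 0.129% for Dnmt3a against 0.0669% to 0.0797% in the other classes. By cytosines listed per 100 bp, the 611 sparsest runs averaged 0.295% after Tet1 and Tet2 knockdown and 0.197% in control, and the 605 densest 0.180% and 0.131%. For Dnmt1 these were 0.0634% and 0.0494%. In the centres alone the control values were 0.155% in the sparsest and 0.130% in the densest runs. Centres of the sparsest runs were also higher for Tet1 and Tet2 (0.227% against 0.164%) and Dnmt3b (0.161% against 0.132%). The same held for the double knockdown (0.0748% against 0.0671%). For Dnmt1 the centres differed little, with 0.0522% in the sparsest and 0.04996% in the densest runs. For Dnmt3a the densest were slightly higher, with 0.0688% against 0.0673%.

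The size of the runs differed little between the libraries. When they were rebuilt from all cytosines that each library lists, the run around a member had a median span of 331 bp for Tet1 and Tet2, 311 bp for Dnmt1, 314 bp for Dnmt3a, 315 bp for Dnmt3b, 315 bp for the double knockdown and 327 bp for control, where the SD of the autosomes' medians was between 12.6 and 18.3 bp. The longest spans came from the libraries that listed the most cytosines, Tet1 and Tet2 (604227) and control (588220), and the shortest from the one that listed the fewest, Dnmt1 (445016); the part of listing in these differences was not tested. The span grew beyond the shared run in 952 runs for Tet1 and Tet2, 552 for Dnmt1, 728 for Dnmt3a, 711 for Dnmt3b, 714 for the double knockdown and 883 for control. A cytosine of at least 20% lay within that rebuilt stretch in 23, 1, 4, 14, 6 and 15 runs in that order, so the median span was the same to within 1 bp when it ended there. The chromosome 17 run reached 3333 bp in the Tet1 and Tet2 library and 1273 bp in the Dnmt1 library. It reached 1309 bp in the Dnmt3a, Dnmt3b and double knockdown libraries, and control was the shortest at 701 bp.

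The number of large runs below the limit did depend on the library. Of the 2791 runs of at least 20 shared cytosines, 2468 were below 2% after Tet1 and Tet2 knockdown, 2722 after Dnmt1, 2672 after Dnmt3a, 2510 after Dnmt3b and 2655 after the double knockdown, against 2533 in control. Among the 349 that were not below it in every library, 280 were below 2% after Dnmt1 knockdown, 230 after Dnmt3a, 213 after the double knockdown, 68 after Dnmt3b and 26 after Tet1 and Tet2 knockdown, against 91 in control. Applied to each library's own cytosines, the limit passed 97.3% of 3896 runs for Dnmt1, 94.4% of 3998 for Dnmt3a, 94.1% of 4032 for the double knockdown, 87.8% of 4130 for Dnmt3b and 87.1% of 4650 for Tet1 and Tet2, against 88.7% of 4565 for control.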

How the data were processed

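DNA of each library was cut with MspI, made into TruSeq libraries, bisulfite converted and sequenced on a HiScanSQ, per the labels' protocols. Build mm9 and the tools Bismark 0.10.1 and CASAVA 1.8 are named, without roles, per the submitters' processing notes. The coverage minimum is not given in the sources used here. For each CpG cytosine the deposited files hold 5 bases of context and a methylation fraction, given with 3 decimals and without read counts. Fractions were turned into percent, and between 67 and 135 cytosines per library without a level were left out. Positions are 1-based.

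The software was NumPy 2.4.6 and pandas 2.3.3 under Python 3.11.15, with matplotlib 3.10.9 for figures. The scripts for runs, edges and matching were first tested on simulated data. The rebuilding of runs from each library's own cytosines was not tested in this way. The members, lists and rules were chosen with earlier results of these data known. Named runs are the 5 with the most cytosines, the 2 widest, the highest in each library, the 3 with the largest edge excess and the 3 on either side of the limit; cytosines are the 3 highest by mean. The gene groups and the 10 highest matched runs were added after values were seen. Promoter windows were matched by sequence alone, and no coordinate was converted. Alternatives changed the gap, the smallest run, the limit, the chromosomes, the strands, the libraries, the CCGG cytosines, the weights and the edges.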

Additional observations from a re-analysis of the deposited data

How the results depend on the processing

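No difference from control and no edge minus centre changed sign where it was recomputed, but over the cytosines that the rule did not use Tet1 and Tet2 (0.219%) and Dnmt3b (0.195%) lay below control. Of the mean levels, 53 values stayed within the SD over autosomes and 18 did not; the counts were 39 and 10 for the differences from control, 51 and 26 for edge minus centre and 35 and 24 for median spans. The number of runs stayed within 1.5 times its value under 6 alternatives (2276 to 3534 runs, the highest with a gap of 300 bp) and not under 3. Libraries are given in the order Tet1 and Tet2, Dnmt1, Dnmt3a, Dnmt3b, double knockdown, control.

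With a gap of at most 50 bp there were 1294 runs, with median spans of 214, 207, 205, 204, 205 and 211.5 bp, and edge minus centre was 0.0378 ± 0.0620 points for Tet1 and Tet2, 0.0335 ± 0.0504 for Dnmt3b and 0.0169 ± 0.0397 for control. With a gap of at most 300 bp the spans were 632.5, 544.5, 591.5, 590, 589 and 591 bp and edge minus centre 0.311, 0.0386, 0.0860, 0.208, 0.0640 and 0.197 points. The mean levels of Tet1 and Tet2 (0.293%) and Dnmt3b (0.215%) and the difference of Dnmt3a from control (-0.111 points) were then also larger. From 10 cytosines upwards there were 7835 runs, with spans of 217, 185, 193, 198, 196 and 214 bp. From 40 upwards there were 288, with spans of 546, 520, 527, 530, 527 and 542 bp, a double knockdown mean of 0.0979% and edge minus centre of 0.236 (Tet1 and Tet2), 0.162 (Dnmt3b), 0.0505 (double knockdown) and 0.133 points (control).

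With a limit of 1% the mean levels were 0.161%, 0.0469%, 0.0596%, 0.118%, 0.0633% and 0.115%, and the differences from control 0.0459 (Tet1 and Tet2), -0.0680 (Dnmt1), -0.0552 (Dnmt3a) and -0.0516 points (double knockdown). With a limit of 5% the means were 0.422%, 0.0893%, 0.138%, 0.337%, 0.139% and 0.303%, and the differences 0.119, -0.214, -0.166, 0.0335 and -0.164 points. Edge minus centre was then 0.216 (Tet1 and Tet2), 0.152 (Dnmt3b), 0.0382 (double knockdown) and 0.125 points (control). The limit sets these levels by its own construction. Cytosines that the rule did not use read 0.169% (Dnmt3a), 0.142% (double knockdown) and 0.230% (control). With edges of 50 bp, edge minus centre was 0.0568 (Tet1 and Tet2), 0.0348 (Dnmt3b) and 0.0254 points (control). In the runs beside a methylated cytosine it was 0.380, 0.0894, 0.125, 0.303, 0.0790 and 0.184 points, each smaller than its SD over the autosomes. For the other shifts the cause was not tested.

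No paired analysis was possible because each group has 1 library, and for the same reason there is no replicate to leave out. Read depth per cytosine is unknown, which limits what can be said of traces below 1%.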
